A study of Mus musculus with 8 samples.

Results

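The 10 heat shock chaperone genes Hspa1a, Hspa1b, Hspa8, Hsph1, Dnajb1, Bag3, Hsp90aa1, Hspb1, Hspd1 and Hspe1 were taken by symbol from a table of raw RNA-seq counts. All 10 were among its 21240 genes, and all 10 passed a filter on low counts that kept 11835 genes for testing. The cells were NMuMG, an established epithelial line from normal mouse mammary gland, labelled wild type. They had been given BRM014, which blocks the ATPases SMARCA4 and SMARCA2 of SWI/SNF chromatin remodellers, for 30 h or 6 h, or the solvent DMSO for 30 h or 6 h. All cultures were grown with serum and insulin, and no dose of BRM014 was stated in the sources used here. All 4 groups had 2 libraries. The labels name them biological replicates but mention no separate passages, so p-values measure the spread between these libraries, which may be partly technical.

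Heat shock proteins are chaperones that bind unfolded or aggregating proteins and help them fold. Under heat or other protein damage the transcription factor HSF1 binds repeated short elements in the promoters of many of these genes and switches them on, while some family members are made all the time. Cytosolic HSP70 proteins work with J-domain partners, which deliver substrates, and with nucleotide exchange factors, which release them. HSP90 completes the folding of many signalling proteins, small heat shock proteins hold unfolded proteins without using ATP, and HSP60 with its lid HSP10 forms a folding chamber inside mitochondria.

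The libraries held 17859693 to 29955366 counts, and the 10 genes together took 0.217% to 0.312% of a library. Of 8 epithelial markers, Cdh1, Krt8, Krt18, Krt19 and Tjp1 were tested, whereas Epcam and Cldn3 had 0 counts in all 8 libraries and Cldn4 was almost absent. The summed epithelial markers lay at 7791 to 9022 CPM (counts per 1000000, with TMM library scaling) in BRM014 at 30 h, 5895 to 5967 CPM in DMSO at 30 h, 5924 to 6497 CPM in BRM014 at 6 h and 6488 to 6798 CPM in DMSO at 6 h. Krt18 and Krt8 made up most of the sum, with means of 4105 and 2709 CPM in BRM014 at 30 h, against 2370 and 1702 CPM in DMSO at 30 h. Krt19 ran the other way, with 657 CPM in BRM014 against 1199 CPM in DMSO at 30 h, and 341 CPM in BRM014 against 722 CPM in DMSO at 6 h. Fibroblast markers summed to at most 2.77 CPM and immune markers to at most 8.16 CPM in any library, and most of the immune sum was Cd68. Endothelial and adipocyte markers summed to at most 0.257 and 0.298 CPM. The epithelial sum was thus highest in BRM014 at 30 h, and its part in the results at 30 h was not tested. The inhibited ATPases' own transcripts did not pass the test between BRM014 and DMSO, with log2 fold changes (BRM014 over DMSO, ± SE) of 0.08 ± 0.09 at 30 h and -0.04 ± 0.09 at 6 h for Smarca4, and of 0.26 ± 0.21 at 30 h and 0.08 ± 0.24 at 6 h for Smarca2. Smarca2 was higher at 30 h than at 6 h in BRM014 (1.25 ± 0.22) and in DMSO (1.06 ± 0.23), and both changes passed. Smarca4 was lower at 30 h in DMSO (-0.32 ± 0.09), which passed, and in BRM014 (-0.20 ± 0.09), which did not.

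Promoter windows of 300 bases, from 250 before to 50 after each annotated start, were found for 8 of the 10 genes in a RefSeq table of build GRCm38.p6; Hspa8 and Hsp90aa1 had none. They are shown because heat shock elements are what the family is known to share. The letters searched were GAANNTTC and TTCNNGAA, each a pair of facing units that reads the same on both strands, and triples, in which the first pair is followed by NNGAA or the second by NNTTC, so that each triple contains 2 overlapping pairs and each form is the other read on the opposite strand. In the 4 windows below, capitals mark every match to a pair. The Hspe1 window (chr1:55087898-55088197, plus strand) carries an unbroken run of units, its first base 89 bases before the start. The window of the second annotated Hspd1 start (chr1:55087883-55088182, minus strand) covers 285 of the same bases and holds the same run on the other strand. These divergent starts lie 216 bases apart, so Hspd1 and Hspe1 share the run. The Hsph1 window (chr5:149636287-149636586, minus strand) has 1 pair 33 bases before its start and a triple 36 bases after it. The Hspb1 window (chr5:135887669-135887968, plus strand) has pairs 117 and 97 bases before its start, and that of Bag3 (chr7:128523333-128523632, plus strand) has 1 pair 42 bases after its start.
Hspe1: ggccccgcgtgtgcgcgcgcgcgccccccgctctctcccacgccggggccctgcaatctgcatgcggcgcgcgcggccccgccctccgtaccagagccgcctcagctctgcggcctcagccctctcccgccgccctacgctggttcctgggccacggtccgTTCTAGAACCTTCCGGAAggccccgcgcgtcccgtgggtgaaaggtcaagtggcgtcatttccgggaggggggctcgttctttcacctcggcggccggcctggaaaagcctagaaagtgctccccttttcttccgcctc
Hsph1: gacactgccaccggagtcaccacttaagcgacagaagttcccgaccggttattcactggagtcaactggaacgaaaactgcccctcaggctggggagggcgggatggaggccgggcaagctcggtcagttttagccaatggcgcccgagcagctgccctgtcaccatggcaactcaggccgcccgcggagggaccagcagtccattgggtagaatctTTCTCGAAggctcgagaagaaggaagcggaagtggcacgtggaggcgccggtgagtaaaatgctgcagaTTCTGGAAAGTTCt
Hspb1: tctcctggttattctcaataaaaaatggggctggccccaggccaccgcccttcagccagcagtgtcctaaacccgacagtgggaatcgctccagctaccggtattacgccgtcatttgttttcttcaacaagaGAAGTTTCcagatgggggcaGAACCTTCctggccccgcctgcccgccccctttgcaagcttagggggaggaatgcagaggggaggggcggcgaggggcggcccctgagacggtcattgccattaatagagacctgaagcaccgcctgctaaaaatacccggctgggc
Bag3: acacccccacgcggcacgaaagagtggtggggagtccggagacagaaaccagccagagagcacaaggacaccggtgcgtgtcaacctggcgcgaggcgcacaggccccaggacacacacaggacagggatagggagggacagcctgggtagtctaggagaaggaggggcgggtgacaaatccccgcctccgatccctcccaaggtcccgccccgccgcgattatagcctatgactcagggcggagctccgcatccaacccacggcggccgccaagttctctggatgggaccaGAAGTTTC

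A pair was found for 7 of the 8 genes, against 17.0% of all 27025 genes with a window, and a triple for 3 (Hsph1, Hspd1 and Hspe1), against 0.662%. These counts are a description only, because the genes were chosen as heat shock genes. They are also not independent, as Hspd1 and Hspe1 share a run and Hspa1a and Hspa1b are near copies. The windows of Dnajb1 and that of the first annotated Hspd1 start held none of these letters, which says only that they are not in those bases. The windows of the stress-inducible HSP70 genes Hspa1b (chr17:34959189-34959488, minus strand) and Hspa1a (chr17:34972107-34972406, minus strand) are shown beside each other because the genes are near copies. They were identical at 296 of 300 bases (98.7%), and both had a pair 104 bases before the start. Capitals mark the 4 differing bases, which are T44C, C47T, G249T and T276C from Hspa1b to Hspa1a, counted from 1 at the left end of the window.
Hspa1b: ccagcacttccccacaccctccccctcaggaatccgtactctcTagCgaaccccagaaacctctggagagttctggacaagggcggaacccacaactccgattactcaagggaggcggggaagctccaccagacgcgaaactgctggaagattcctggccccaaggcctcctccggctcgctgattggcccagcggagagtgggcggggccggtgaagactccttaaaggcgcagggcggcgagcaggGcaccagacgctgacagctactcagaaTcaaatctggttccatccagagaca
Hspa1a: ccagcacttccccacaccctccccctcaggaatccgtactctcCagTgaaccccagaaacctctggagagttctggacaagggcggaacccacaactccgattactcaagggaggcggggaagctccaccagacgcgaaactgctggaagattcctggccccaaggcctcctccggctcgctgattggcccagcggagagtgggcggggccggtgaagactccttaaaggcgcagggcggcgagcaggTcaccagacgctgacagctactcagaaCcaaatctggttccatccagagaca

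**Figure D1:**
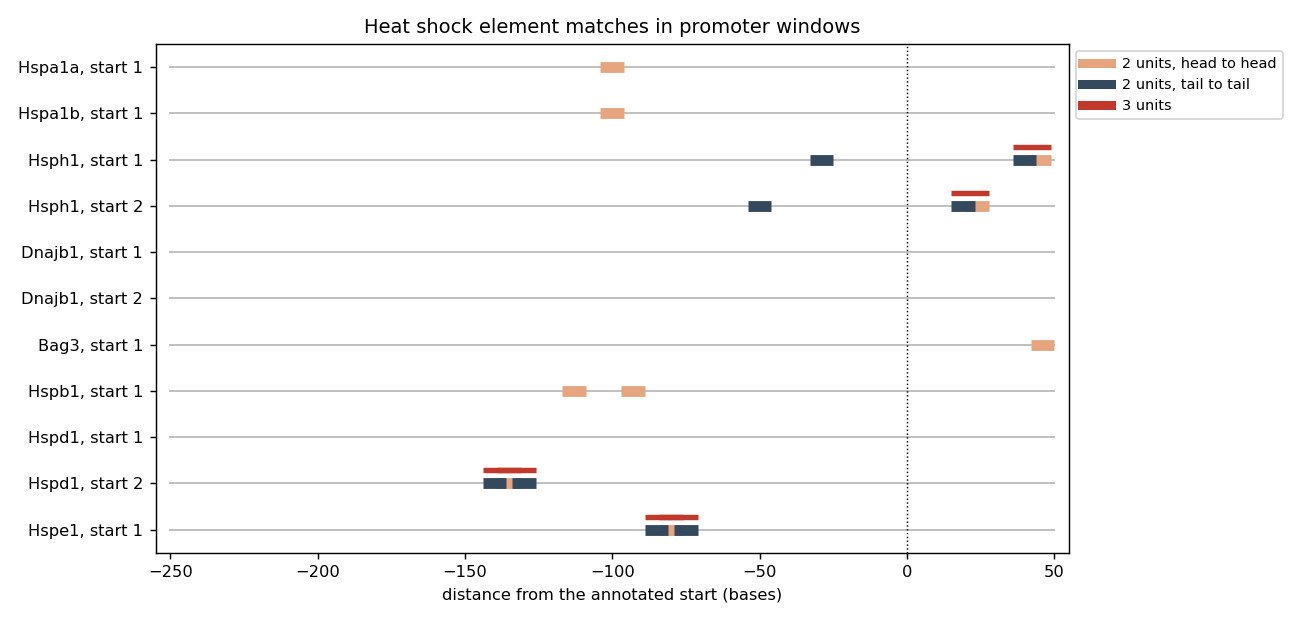
Matches to heat shock element letters in the promoter windows, by distance in bases from each annotated start (dotted line); the windows run from 250 bases before to 50 after it. Coloured bars are matches to pairs of units and the red bars above them triples. Hspd1 start 2 and Hspe1 show the same run from both strands, and Dnajb1 and Hspd1 start 1 show none.

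The transcripts of several of these genes are partly repeated elsewhere, which matters for single reads of 50 bases. Of all 50-base stretches in the protein-coding transcripts (GENCODE M21), 62.3% of those of Hspa1b also occurred in Hspa1a, and 58.8% of those of Hspa1a in Hspa1b. The shares found in any other annotated transcript were 68.8% for Hspa8 (in 12 pseudogenes and 1 other gene), 50.1% for Hsp90aa1, 50.1% for Hspb1, 44.8% for Hspe1 and 42.1% for Hspd1. Hsph1 and Bag3 shared none, and Dnajb1 shared 0.412%. The sources used here do not state how the authors counted reads that match several places. The levels of the repeated genes, and of Hspa1a and Hspa1b in particular, are uncertain for this reason.

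After 30 h of BRM014, 6 of the 10 genes differed from DMSO (adjusted p below 0.05 in edgeR's quasi-likelihood test): Hspb1 and Hsp90aa1 were higher, and Hspa1b, Hsph1, Dnajb1 and Hspd1 were lower. Among all tested genes 35.9% differed at 30 h, 16.8% higher and 19.1% lower. After 6 h, 3 of the 10 differed, with Hspb1 higher and Hspa1b and Hspd1 lower, against 23.8% of all tested genes (9.35% higher and 14.4% lower). With library totals in place of TMM scaling, 2 were higher and 2 lower at 6 h. The genes did not move one way at either time. Their median log2 fold change was -0.15 at 30 h, with a range of -0.69 to 2.30, and -0.03 at 6 h, with a range of -0.86 to 1.10; the medians of all tested genes were -0.00457 and -0.01. The difference between the 30 h and 6 h effects passed the test for Hsph1 and Dnajb1, both lower, against 6.47% of all tested genes (3.89% higher and 2.59% lower). Leaving out 1 library changed these counts: the 30 h count was 3 without DMSO 30 h replicate 1. The 6 h count was 1 when BRM014 6 h replicate 1, BRM014 6 h replicate 2 or DMSO 6 h replicate 2 was left out, and 2 when DMSO 6 h replicate 1 was. Calls among all tested genes also became fewer with each of these libraries left out. The 30 h effects share no library with the 6 h effects. Their p-values are not independent, however, because 1 fit of all 8 libraries estimates the spread for both. In these bulk samples a lower level in every cell and fewer cells that express a gene cannot be told apart.

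**Figure D2:**
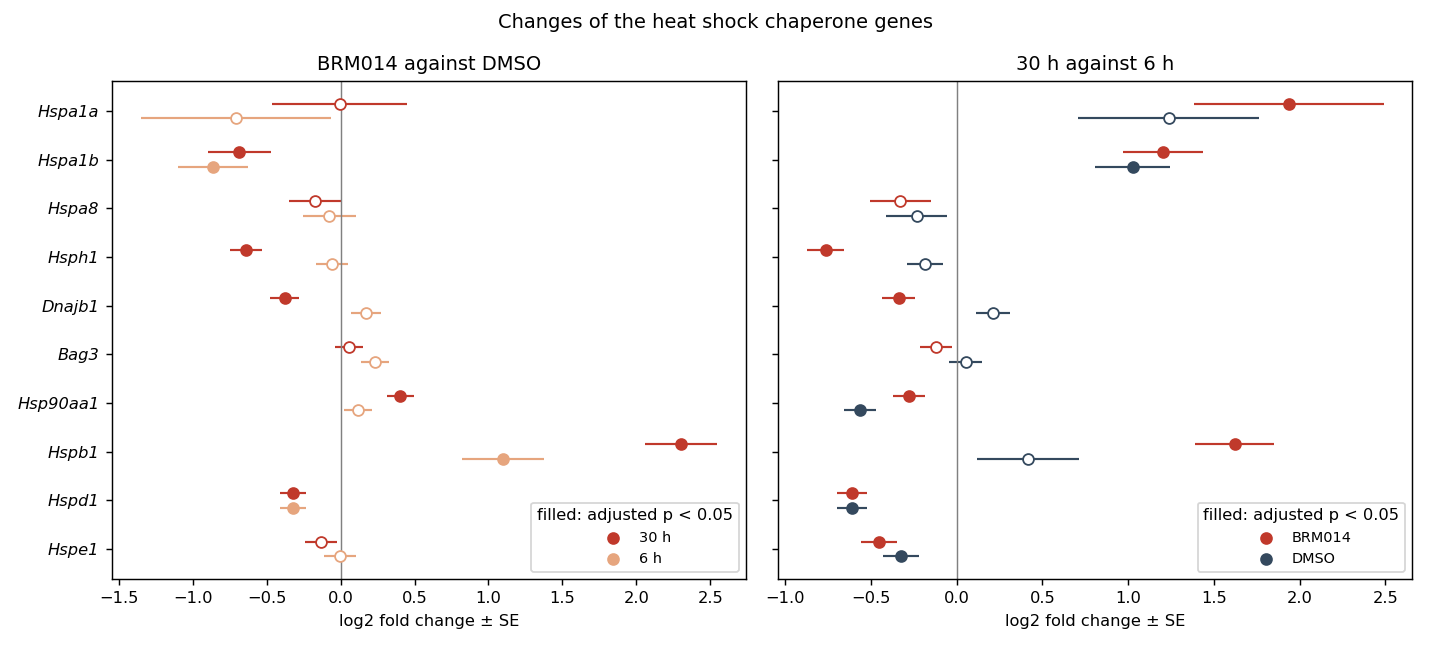
Log2 fold change ± SE from the edgeR fit for each gene, BRM014 against DMSO at 30 h and 6 h (left panel) and 30 h against 6 h in BRM014 and in DMSO (right panel). Filled points have an adjusted p below 0.05; Hspb1 lies farthest to the right in the left panel, at 2.30 at 30 h and 1.10 at 6 h.

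Among the HSP70 genes, Hspa1b was lower with BRM014 at both times, while the constitutive gene Hspa8 varied between replicates. Hspa1b (Entrez 15511), which encodes the stress-inducible cytosolic HSP70, had 267 and 536 counts in BRM014 at 30 h, against 497 and 556 in DMSO. Scaled to CPM these were 14.3 and 17.5 in BRM014, against 27.0 and 24.3 in DMSO. The groups did not overlap on the CPM scale, and the log2 fold change was -0.69 ± 0.21 (0.622-fold, adjusted p = 0.0235). The 6 h levels were 5.39 and 8.36 CPM in BRM014, against 9.91 and 15.3 CPM in DMSO. These groups did not overlap either (-0.86 ± 0.24, 0.550-fold, adjusted p = 0.0171), and the difference between the 30 h and 6 h effects was 0.18 ± 0.32 (adjusted p = 0.803). Both calls rest on single libraries. With BRM014 30 h replicate 1 left out the 30 h change was -0.55 and its adjusted p was 0.143, and with DMSO 30 h replicate 1 left out these were -0.60 and 0.0827. With BRM014 6 h replicate 1 left out the 6 h change was -0.59 and its adjusted p was 0.167, and with DMSO 6 h replicate 2 left out these were -0.52 and 0.200.

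Hspa1a (Entrez 193740), whose protein is almost the same as that of Hspa1b, was counted far less often. It had 19 and 69 counts in BRM014 at 30 h and 26 and 45 in DMSO at 30 h, and 5 and 14 in BRM014 at 6 h and 8 and 20 in DMSO at 6 h. The groups overlapped at both times, and the log2 fold changes were -0.01 ± 0.46 at 30 h (an adjusted p of 0.993) and -0.71 ± 0.64 at 6 h (an adjusted p of 0.476). Hspa1a took 3.94% to 11.4% of the counts given to the pair. With the counts of both genes summed, the change was -0.64 ± 0.22 at 30 h (an adjusted p of 0.0391) and -0.86 ± 0.24 at 6 h (an adjusted p of 0.0212). Hspa8 (Entrez 15481), the constitutive HSC70, had 376 and 350 CPM in BRM014 at 30 h, against 486 and 333 CPM in DMSO. The 6 h levels were 449 and 464 CPM in BRM014, against 578 and 384 CPM in DMSO. At both times the DMSO replicates lay on either side of both BRM014 libraries, and neither change passed (-0.17 ± 0.18 with an adjusted p of 0.487 at 30 h, and -0.08 ± 0.18 with an adjusted p of 0.809 at 6 h).

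**Figure D3:**
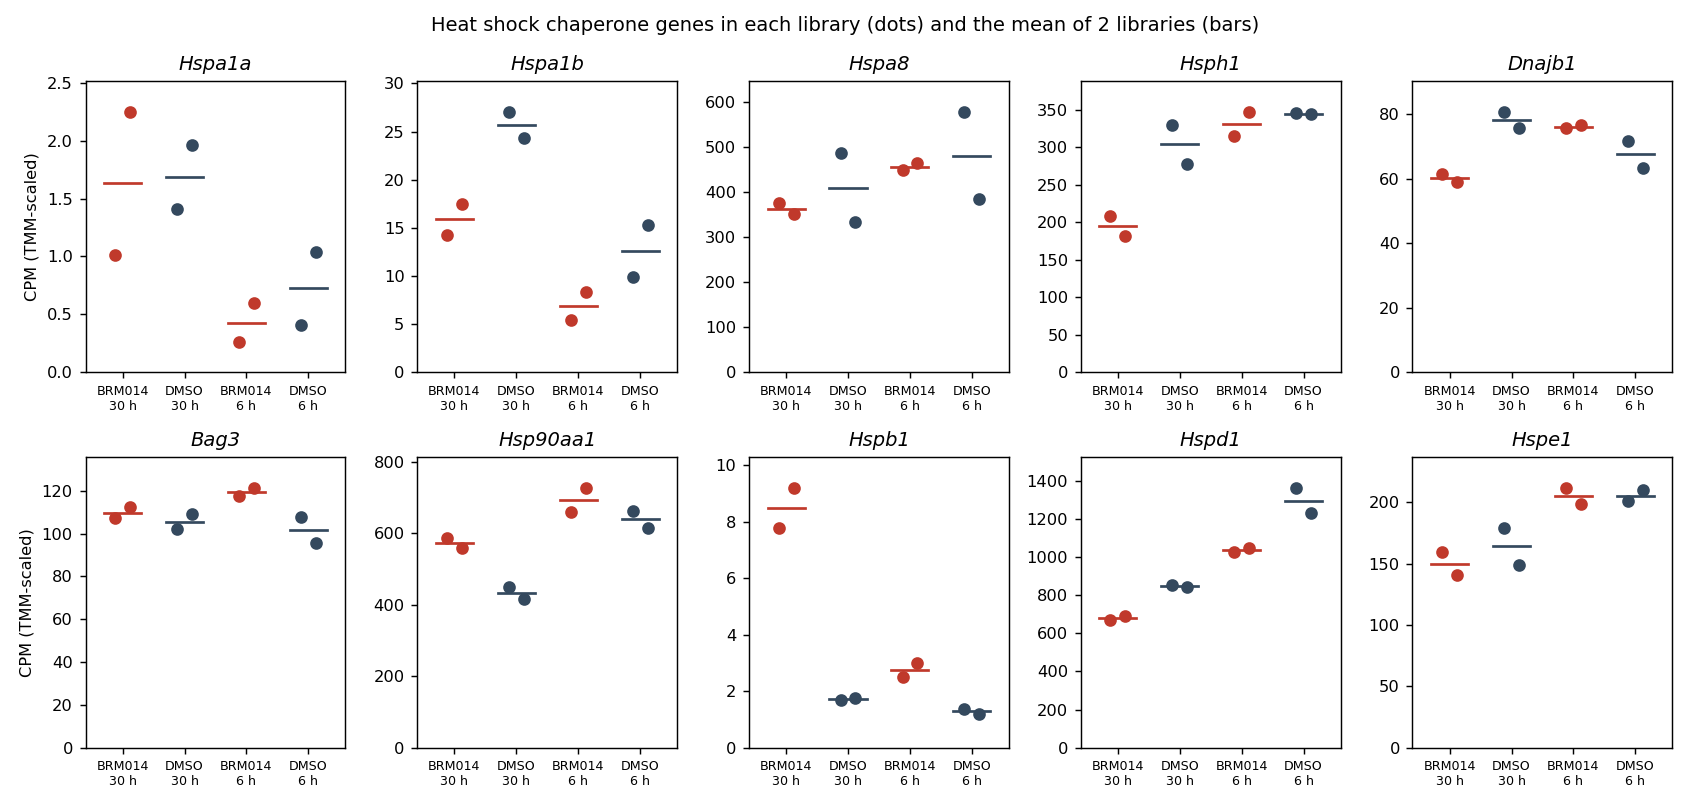
TMM-scaled CPM of each gene in every library, in BRM014 at 30 h, DMSO at 30 h, BRM014 at 6 h and DMSO at 6 h; dots are libraries and bars the mean of 2. The axes start at 0 and differ between genes; Hspb1 stands highest in BRM014 at 30 h (7.76 and 9.19 CPM) and Hsph1 lowest there (208 and 182 CPM).

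The HSP70 partners Hsph1 and Dnajb1 were lower with BRM014 at 30 h and did not pass at 6 h, and the third partner, Bag3, did not pass at either time. Hsph1 (Entrez 15505), which encodes the HSP110 nucleotide exchange factor, had 208 and 182 CPM in BRM014 at 30 h, against 330 and 278 CPM in DMSO. The groups were well apart, and the change of -0.64 ± 0.11 (0.642-fold, adjusted p = 0.000457) held with any 1 library left out (-0.76 to -0.50). At 6 h Hsph1 had 315 and 347 CPM in BRM014, against 345 and 344 CPM in DMSO, and these overlapped (-0.06 ± 0.11, adjusted p = 0.747). Dnajb1 (Entrez 81489), which encodes the J-domain protein HSP40, had 61.5 and 59.0 CPM in BRM014 at 30 h, against 80.7 and 75.9 CPM in DMSO. That change was -0.38 ± 0.10 (0.770-fold, adjusted p = 0.00932), and its call ended without DMSO 30 h replicate 1 (-0.33 with adjusted p = 0.0537) and also without BRM014 30 h replicate 2 (-0.34 with adjusted p = 0.0652). At 6 h Dnajb1 had 75.6 and 76.7 CPM in BRM014, against 71.7 and 63.5 CPM in DMSO. Both BRM014 libraries were thus the higher ones at 6 h, but the change did not pass (0.17 ± 0.10, adjusted p = 0.237).

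The effect of BRM014 on both genes differed between the times. The difference, 30 h minus 6 h, was -0.58 ± 0.15 for Hsph1 (adjusted p = 0.0360) and -0.55 ± 0.14 for Dnajb1 (adjusted p = 0.0329). Each call ended when any 1 of 6 libraries was left out. For Hsph1 the values without DMSO 6 h replicate 1, DMSO 6 h replicate 2, DMSO 30 h replicate 1, BRM014 6 h replicate 1, BRM014 6 h replicate 2 and BRM014 30 h replicate 2 were -0.61, -0.57, -0.44, -0.65, -0.51 and -0.48 (adjusted p = 0.0793 to 0.176). For Dnajb1 the values without DMSO 6 h replicate 2, DMSO 30 h replicate 1, BRM014 6 h replicate 1, BRM014 6 h replicate 2, BRM014 30 h replicate 1 and BRM014 30 h replicate 2 were -0.45, -0.50, -0.56, -0.54, -0.58 and -0.51 (adjusted p = 0.0573 to 0.132). Bag3 (Entrez 29810), a co-chaperone that links HSP70 to autophagy, had 107 and 112 CPM in BRM014 at 30 h, against 102 and 109 CPM in DMSO, and these overlapped (0.06 ± 0.10, adjusted p = 0.674). At 6 h it had 117 and 121 CPM in BRM014, against 108 and 95.6 CPM in DMSO. Those groups did not overlap, and the change of 0.23 ± 0.10 missed the threshold (adjusted p = 0.0997), although it passed with library totals in place of TMM (0.32 with adjusted p = 0.0215) and with only the 4 libraries of that time (0.25 with adjusted p = 0.0472).

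Hsp90aa1 (Entrez 15519), the inducible cytosolic HSP90, was higher with BRM014 at 30 h. It had 589 and 558 CPM in BRM014, against 450 and 417 CPM in DMSO, and the groups did not overlap. The change was 0.40 ± 0.09 (1.32-fold, adjusted p = 0.00430), and it passed with any 1 library left out (0.35 to 0.47). At 6 h the levels of 661 and 728 CPM in BRM014, against 664 and 616 CPM in DMSO, overlapped (0.12 ± 0.09, adjusted p = 0.401). The difference between the times was 0.29 ± 0.13 (adjusted p = 0.245). Raw counts of Hsp90aa1 were 0.138 and 0.130 times those of its constitutive partner Hsp90ab1 in BRM014 at 30 h, against 0.1004 and 0.0972 in DMSO at 30 h. The same ratio was 0.130 and 0.140 in BRM014 at 6 h, against 0.118 and 0.124 in DMSO at 6 h, so the BRM014 libraries were the higher ones at both times; this ratio was not tested.

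Hspb1 showed the largest change of the 10 genes at both times, from a low level. Hspb1 (Entrez 15507) encodes the small heat shock protein known as HSP25 in the mouse, which holds unfolded proteins and binds actin filaments. It had 145 and 282 counts in BRM014 at 30 h, against 31 and 40 in DMSO, which is 7.76 and 9.19 CPM against 1.68 and 1.75 CPM. The groups were far apart, with a change of 2.30 ± 0.25 (4.93-fold, adjusted p = 1e-05) that held with any 1 library left out (2.18 to 2.42). At 6 h it had 49 and 70 counts in BRM014, against 27 and 23 in DMSO, or 2.51 and 2.98 CPM against 1.37 and 1.196 CPM. These did not overlap (1.10 ± 0.28, 2.14-fold, adjusted p = 0.0117), but the call ended without DMSO 6 h replicate 2 (1.00 with adjusted p = 0.0759) and also without BRM014 6 h replicate 2 (0.97 with adjusted p = 0.104). The 30 h effect exceeded the 6 h effect by 1.203 ± 0.38, which did not pass (adjusted p = 0.0813). Of the 50-base stretches of Hspb1, 48.8% also occur in the pseudogene Hsp25-ps1.

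Of the mitochondrial pair, Hspd1 was lower with BRM014 at both times, and Hspe1 passed at neither. Hspd1 (Entrez 15510), which encodes HSP60, had 671 and 688 CPM in BRM014 at 30 h, against 855 and 842 CPM in DMSO. It had 1027 and 1049 CPM in BRM014 at 6 h, against 1362 and 1230 CPM in DMSO. The groups did not overlap at either time, and the changes were -0.32 ± 0.09 at 30 h (0.801-fold, adjusted p = 0.0115) and -0.32 ± 0.09 at 6 h (0.801-fold, adjusted p = 0.0170). Left-out libraries ended both calls: at 30 h DMSO 30 h replicate 1 (-0.30 with adjusted p = 0.0516) and BRM014 30 h replicate 1 (-0.30 with adjusted p = 0.0592), and at 6 h DMSO 6 h replicate 1 (-0.21 with adjusted p = 0.174), BRM014 6 h replicate 1 (-0.30 with adjusted p = 0.137) and BRM014 6 h replicate 2 (-0.33 with adjusted p = 0.114). Hspe1 (Entrez 15528), which encodes HSP10, had 159 and 141 CPM in BRM014 at 30 h, against 179 and 149 CPM in DMSO. At 6 h it had 212 and 198 CPM in BRM014, against 201 and 210 CPM in DMSO. Its groups overlapped at both times (-0.13 ± 0.11 with an adjusted p of 0.370 at 30 h, and -0.00247 ± 0.11 with an adjusted p of 0.992 at 6 h).

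Within single libraries, the count of Hspe1 was 0.237 and 0.205 times that of Hspd1 in BRM014 at 30 h, against 0.209 and 0.177 in DMSO at 30 h, and these overlapped. The ratio was 0.206 and 0.189 in BRM014 at 6 h, against 0.148 and 0.170 in DMSO at 6 h, without overlap. Whether the responses of Hspd1 and Hspe1 differ was not tested. The first annotated Hspd1 start lies past the Hspe1 start, so that the transcripts from these starts overlap and their reads there can be separated only by strand; the kit was stranded, but the sources used here do not state the strand setting of the counting.

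**Figure D4:**
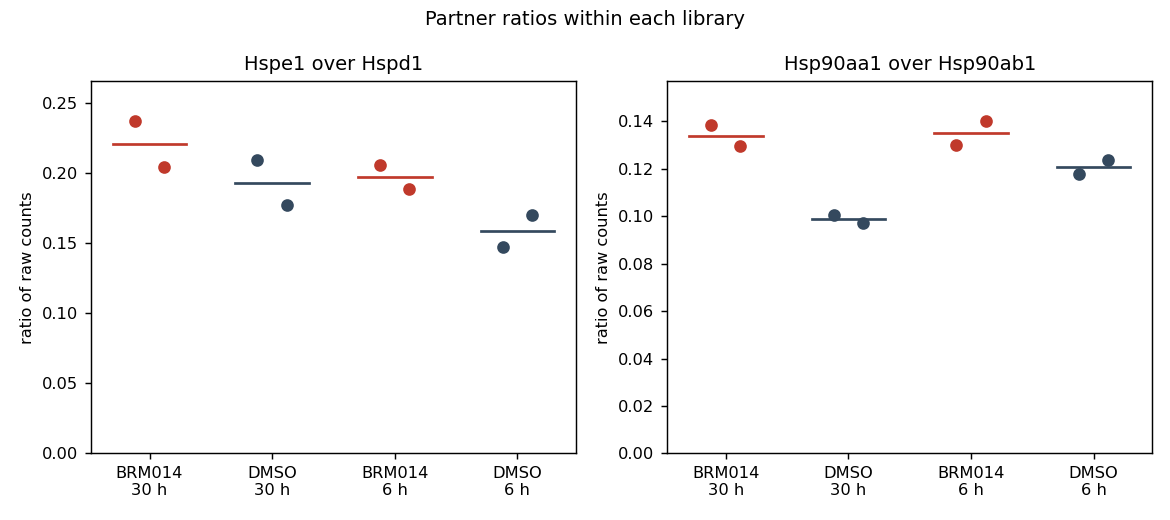
Ratio of raw counts within each library, Hspe1 over Hspd1 (left panel) and Hsp90aa1 over Hsp90ab1 (right panel), in BRM014 at 30 h, DMSO at 30 h, BRM014 at 6 h and DMSO at 6 h. Dots are libraries and bars the mean of 2; the axes start at 0, and Hsp90aa1 over Hsp90ab1 is lowest in DMSO at 30 h (0.1004 and 0.0972).

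Several of the genes also differed between 30 h and 6 h, in comparisons that use the same libraries as those above. The labels give hours of treatment only. In BRM014 any effect of time in culture and that of a longer exposure to the inhibitor cannot be told apart. In BRM014, 8 of 10 genes differed between 30 h and 6 h, against 36.5% of all tested genes (19.6% higher and 16.9% lower), with Hspa1a, Hspa1b and Hspb1 higher and Hsph1, Dnajb1, Hsp90aa1, Hspd1 and Hspe1 lower. In DMSO 4 of 10 differed, against 35.2% of all tested genes (18% higher and 17.2% lower), with Hspa1b higher and Hsp90aa1, Hspd1 and Hspe1 lower; with library totals 2 were higher and 2 lower in DMSO. Hspa1b was higher at 30 h with either agent, by 1.203 ± 0.23 in BRM014 (adjusted p = 0.00153) and 1.03 ± 0.22 in DMSO (adjusted p = 0.00326). Hspd1 was lower at 30 h by equal amounts, with -0.61 ± 0.09 in BRM014 (adjusted p = 0.000218) and -0.61 ± 0.09 in DMSO (adjusted p = 0.000254). Hspb1 changed with time by 1.62 ± 0.23 in BRM014 (adjusted p = 0.000213), against 0.42 ± 0.30 in DMSO (adjusted p = 0.291).

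Hsp90aa1 changed by -0.28 ± 0.09 with time in BRM014 (adjusted p = 0.0324), against -0.56 ± 0.09 in DMSO (adjusted p = 0.000657). Hsph1 changed by -0.76 ± 0.11 in BRM014 (adjusted p = 0.000196), against -0.18 ± 0.11 in DMSO (adjusted p = 0.197), and Dnajb1 by -0.34 ± 0.10 in BRM014 (adjusted p = 0.0168), against 0.21 ± 0.10 in DMSO (adjusted p = 0.113). The differences between these time effects are the differences between the BRM014 effects given above, and passed for Hsph1 and Dnajb1. Hspe1 changed by -0.45 ± 0.11 in BRM014 (adjusted p = 0.00545) and -0.32 ± 0.11 in DMSO (adjusted p = 0.0318), and Hspa1a by 1.94 ± 0.55 in BRM014 (adjusted p = 0.0147) and 1.24 ± 0.53 in DMSO (adjusted p = 0.0841). The changes of Hspa8 (-0.33 ± 0.18 in BRM014 and -0.23 ± 0.18 in DMSO) and Bag3 (-0.12 ± 0.10 in BRM014 and 0.05 ± 0.10 in DMSO) did not pass. Hspa8 passed in BRM014 with no filter (-0.34 with adjusted p = 0.00455) and with only the libraries of that comparison (-0.34 with adjusted p = 0.00689). Library totals made the Dnajb1 change in DMSO pass (0.30 with adjusted p = 0.0300) and ended the calls of Hsp90aa1 in BRM014 (-0.23 with adjusted p = 0.0580) and of Hspe1 in DMSO (-0.23 with adjusted p = 0.118), and the last also ended with only that comparison's libraries (-0.32 with adjusted p = 0.0643). Hspa1a passed in DMSO with no filter (1.25 with adjusted p = 0.0196).

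Several of the time calls ended with 1 library left out. In BRM014 the call of Hspa1a ended without BRM014 6 h replicate 1 (1.49 with adjusted p = 0.133) and BRM014 30 h replicate 2 (1.201 with adjusted p = 0.213). That of Dnajb1 ended without BRM014 6 h replicate 1 (-0.35 with adjusted p = 0.0847), BRM014 6 h replicate 2 (-0.33 with adjusted p = 0.0927) and BRM014 30 h replicate 2 (-0.31 with adjusted p = 0.0835). For Hsp90aa1 it ended whichever of the 4 BRM014 libraries was left out (-0.35 to -0.21 with adjusted p = 0.0673 to 0.245), and for Hspe1 without BRM014 6 h replicate 1 (-0.41 with adjusted p = 0.0622) and BRM014 30 h replicate 2 (-0.37 with adjusted p = 0.0560). The count in BRM014 was 4 of 10 without BRM014 6 h replicate 1 and also 4 without BRM014 30 h replicate 2. In DMSO the call of Hspe1 ended without DMSO 6 h replicate 1 (-0.33 with adjusted p = 0.103), DMSO 6 h replicate 2 (-0.30 with adjusted p = 0.111), DMSO 30 h replicate 2 (-0.17 with adjusted p = 0.287), BRM014 6 h replicate 1 (-0.32 with adjusted p = 0.0517) or BRM014 6 h replicate 2 (-0.32 with adjusted p = 0.0518). Hspa8 passed in DMSO without DMSO 6 h replicate 2 (-0.51 with adjusted p = 0.0467) and without DMSO 30 h replicate 1 (-0.54 with adjusted p = 0.0317), and its value was 0.11 without DMSO 6 h replicate 1 and 0.04 without DMSO 30 h replicate 2.

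Per kilobase of the longest coding transcript, Hspd1 had the highest level of the 10 genes in every group and Hspa1a the lowest. In BRM014 at 30 h the order of the mean levels in CPM per kilobase was Hspd1 (280), Hspe1 (194), Hsp90aa1 (175), Hspa8 (152), Hsph1 (51.3), Bag3 (42.9), Dnajb1 (20.1), Hspb1 (9.11), Hspa1b (5.66) and Hspa1a (0.550), with no overlap between the libraries of neighbours. In DMSO at 6 h the mean levels in CPM per kilobase were 535 for Hspd1, 265 for Hspe1, 201 for Hspa8, 195 for Hsp90aa1, 90.7 for Hsph1, 39.7 for Bag3, 22.6 for Dnajb1, 4.49 for Hspa1b, 1.38 for Hspb1 and 0.244 for Hspa1a. In that order the libraries of neighbouring genes overlapped for Hspa8 and Hsp90aa1 alone, whereas in DMSO at 30 h Hspe1 overlapped Hspa8, and in BRM014 at 6 h Hspb1 overlapped Hspa1b. Hspb1 thus stood above Hspa1b in BRM014 at 30 h and below it in DMSO at 30 h (1.85 for Hspb1 and 9.16 for Hspa1b). These levels use annotated lengths and take no account of the repeated stretches.

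The profiles of the 10 genes over the 8 libraries, described by Pearson's r of log2 CPM (n = 8 libraries, which fall into 4 groups), went several ways. Hspa1a and Hspa1b ran together (r = 0.899), as did Hspd1 and Hspe1 (r = 0.850), Hsph1 and Hspd1 (r = 0.857) and Hsph1 and Hspe1 (r = 0.841). Opposite courses were seen for Hsph1 and Hspb1 (r = -0.893) and for Hspa1b and Hsp90aa1 (r = -0.867). The tested genes outside the 10 whose profiles were most alike were Hunk for Hspa1a (r = 0.979), Stat6 for Hspa1b (r = 0.984), Rps3 for Hspa8 (r = 0.982), Prim2 for Hsph1 (r = 0.987), Ndufb10 for Dnajb1 (r = 0.952), Gna12 for Bag3 (r = 0.953), Usp42 for Hsp90aa1 (r = 0.979), Klhdc10 for Hspb1 (r = 0.995), Orc1 for Hspd1 (r = 0.993) and Med6 for Hspe1 (r = 0.988). Between 0.101% (Bag3) and 5.49% (Hspd1) of tested genes had r above 0.9 with a gene of the 10, so the nearest of 11835 is a description only.

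The other chaperone genes were taken from 9 lists by role, with 88 genes of which 82 were tested. At 30 h 10 were higher, 17 lower and 55 did not pass, a share of 32.9% against 35.9% of all tested genes. At 6 h 4 were higher, 10 lower and 68 did not pass, a share of 17.1% against 23.8%. Their median log2 fold change was -0.08 at 30 h and 0.01 at 6 h. Of the heat shock factor genes, Hsf1, the main activator of the response, changed by 0.02 ± 0.10 at 30 h (an adjusted p of 0.907) and 0.08 ± 0.10 at 6 h (an adjusted p of 0.641). Hsf2 was lower at 30 h (-0.36 ± 0.12, adjusted p = 0.0284) and did not pass at 6 h (-0.07 ± 0.12, adjusted p = 0.709), and the HSF1-binding regulator gene Hsbp1 did not pass at either time (-0.09 ± 0.09 at 30 h and 0.05 ± 0.09 at 6 h). Hsf4 and Hsf5 had at most 3 counts in a library and were not tested. The Hsf2 call ended without DMSO 30 h replicate 1 (-0.30 with adjusted p = 0.125), BRM014 30 h replicate 1 (-0.39 with adjusted p = 0.0673) or BRM014 30 h replicate 2 (-0.32 with adjusted p = 0.137), and with library totals (-0.33 with adjusted p = 0.0562). None of the 3 tested genes passed at 6 h in edgeR, DESeq2 or limma-voom, and none had an unadjusted p below 0.05.

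The small heat shock protein genes moved in opposite directions at 30 h. Of 4 tested, Cryab, which encodes the lens and muscle chaperone alpha-B-crystallin, was higher at 30 h (1.66 ± 0.18, adjusted p = 1e-05; 241 CPM in BRM014 and 76.2 CPM in DMSO), and Hspb8, the partner of Bag3, was lower (-0.74 ± 0.16, adjusted p = 0.00296). Hspb6, named after its value was seen, was also lower (-0.58 ± 0.19, adjusted p = 0.0280), and Hspb2 did not pass. At 6 h Hspb8 was lower (-0.98 ± 0.17, adjusted p = 0.000822), the other 3 did not pass, and Cryab was at 0.38 ± 0.17 (adjusted p = 0.137). The effect on Cryab differed between 30 h and 6 h by 1.28 ± 0.25 (adjusted p = 0.00772), a call that ended without DMSO 6 h replicate 1 (1.11 with adjusted p = 0.0555). Of 6 other HSP70 and HSP110 genes, 2 were higher, 2 lower and 2 did not pass at 30 h, and 1 was lower at 6 h. Both lists are small, and of all tested genes 35.9% were called at 30 h and 23.8% at 6 h. The HSP110 gene Hspa4l, related to Hsph1, was lower at both times (-1.14 ± 0.13 with an adjusted p of 2.28e-05 at 30 h, and -0.88 ± 0.13 with an adjusted p of 0.000332 at 6 h). The microsomal HSP70 gene Hspa13 was higher at 30 h (0.35 ± 0.10, adjusted p = 0.0172). That call ended without DMSO 30 h replicate 1 (0.31 with adjusted p = 0.0770), BRM014 30 h replicate 1 (0.34 with adjusted p = 0.0658) or BRM014 30 h replicate 2 (0.38 with adjusted p = 0.0526).

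Of 12 other J-domain genes, 3 were higher, 3 lower and 6 did not pass at 30 h, and 2 were higher, 1 lower and 9 did not pass at 6 h. That is 6 of 12 at 30 h and 3 of 12 at 6 h, where 35.9% and 23.8% of all tested genes were called. Dnajb4 was higher at 30 h (1.09 ± 0.14, adjusted p = 4.88e-05; 112 CPM in BRM014 and 52.5 CPM in DMSO), Dnajc9, whose product also binds histones, was lower (-0.77 ± 0.10, adjusted p = 5.76e-05), and at 6 h Dnajb2 was higher (0.53 ± 0.10, adjusted p = 0.00166) and the synaptic vesicle chaperone gene Dnajc5 lower (-0.49 ± 0.12, adjusted p = 0.00765). At 30 h Dnajb2 was also higher (0.45 ± 0.10, adjusted p = 0.00322) and Dnajc5 also lower (-0.56 ± 0.12, adjusted p = 0.00213). The Dnajc5 call at 6 h ended without DMSO 6 h replicate 1 (-0.44 with adjusted p = 0.0616) or BRM014 6 h replicate 2 (-0.43 with adjusted p = 0.0975). Of 13 genes of HSP90 and its co-chaperones, 2 were higher, 3 lower and 8 did not pass at 30 h, and 1 was higher at 6 h, beside the same 35.9% and 23.8% of all tested genes. Unc45a was higher at both times. Its 30 h value was 0.26 ± 0.10 (adjusted p = 0.0491), a call that ended with no filter (0.25 with adjusted p = 0.0745). It also ended with only the 30 h libraries (0.27 with adjusted p = 0.102). The value was 0.16 to 0.35 with 1 library left out. Its call held only when that library was BRM014 30 h replicate 1, and ended with any other. The HSP90 activator gene Ahsa1 was lower (-0.36 ± 0.10, adjusted p = 0.0125) and Sugt1 higher (0.41 ± 0.11, adjusted p = 0.0122) at 30 h, and the myosin chaperone gene Unc45a was higher at 6 h (0.33 ± 0.10, adjusted p = 0.0240). These 3 calls ended with single libraries left out: Ahsa1 without DMSO 30 h replicate 1 (-0.27 with adjusted p = 0.0913) or BRM014 30 h replicate 2 (-0.33 with adjusted p = 0.0769), Sugt1 without DMSO 30 h replicate 2 (0.30 with adjusted p = 0.0980) or BRM014 30 h replicate 1 (0.27 with adjusted p = 0.118), and Unc45a whichever 6 h library was left out (0.32 to 0.35 with adjusted p = 0.0804 to 0.150).

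The cytosolic folding chamber TRiC and prefoldin, which delivers substrates to it, were represented by 14 tested genes. None of the 14 passed for BRM014 against DMSO at 30 h in edgeR, DESeq2 or limma-voom, with 2 at an unadjusted p below 0.05, where 35.9% of all tested genes were called. At 6 h, where 23.8% of all tested genes were called, Pfdn4 alone was higher (0.33 ± 0.11, adjusted p = 0.0429), a call that ended whichever 6 h library was left out (0.27 to 0.42 with adjusted p = 0.0632 to 0.218). Between the times, 8 of the 14 were lower at 30 h than at 6 h in BRM014 (median log2 fold change -0.39), and in DMSO 7 were lower and 1 higher (median -0.28), where 36.5% and 35.2% of all tested genes were called. Of 8 HSP70 exchange factor and regulator genes, 1 was lower at 30 h, the ubiquitin ligase gene Stub1 (-0.31 ± 0.09, adjusted p = 0.0211). It did not pass with only the 30 h libraries (-0.30 with adjusted p = 0.0511). The Stub1 call also ended without DMSO 30 h replicate 1 (-0.25) or BRM014 30 h replicate 1 (-0.26). None of the 8 passed at 6 h in edgeR, DESeq2 or limma-voom, where 23.8% of all tested genes were called in edgeR. An unadjusted p below 0.05 in edgeR was reached by 4 of the 8, in both directions. The share of all tested genes at that unadjusted p is not given here. Among 12 other mitochondrial chaperone and protease genes, 2 were higher, 2 lower and 8 did not pass at 30 h, and 2 were lower at 6 h. These shares were 33.3% at 30 h and 16.7% at 6 h, against 35.9% and 23.8% of all tested genes. The matrix protease gene Lonp1 was lower at both times (-0.63 ± 0.11 with an adjusted p of 0.000452 at 30 h, and -0.70 ± 0.11 with an adjusted p of 0.000320 at 6 h), and the disaggregase gene Clpb was higher at 30 h (0.32 ± 0.09, adjusted p = 0.0155). The Clpb call ended without DMSO 30 h replicate 2 (0.27 with adjusted p = 0.0813) or BRM014 30 h replicate 2 (0.29 with adjusted p = 0.0727). Of 10 chaperone genes of the endoplasmic reticulum, 3 were lower and 7 did not pass at 30 h, and 5 were lower and 5 did not pass at 6 h, where 19.1% of all tested genes were lower at 30 h and 14.4% at 6 h. Dnajc3 had the smallest p at 30 h (-0.46 ± 0.10, adjusted p = 0.00247) and Dnajb9 at 6 h (-0.89 ± 0.15, adjusted p = 0.000835), and the effect on Dnajb9 differed between 30 h and 6 h by 0.77 ± 0.21 (adjusted p = 0.0442), a call that ended whichever of the 8 libraries was left out (0.71 to 0.85 with adjusted p = 0.0589 to 0.163).

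**Figure D5:**
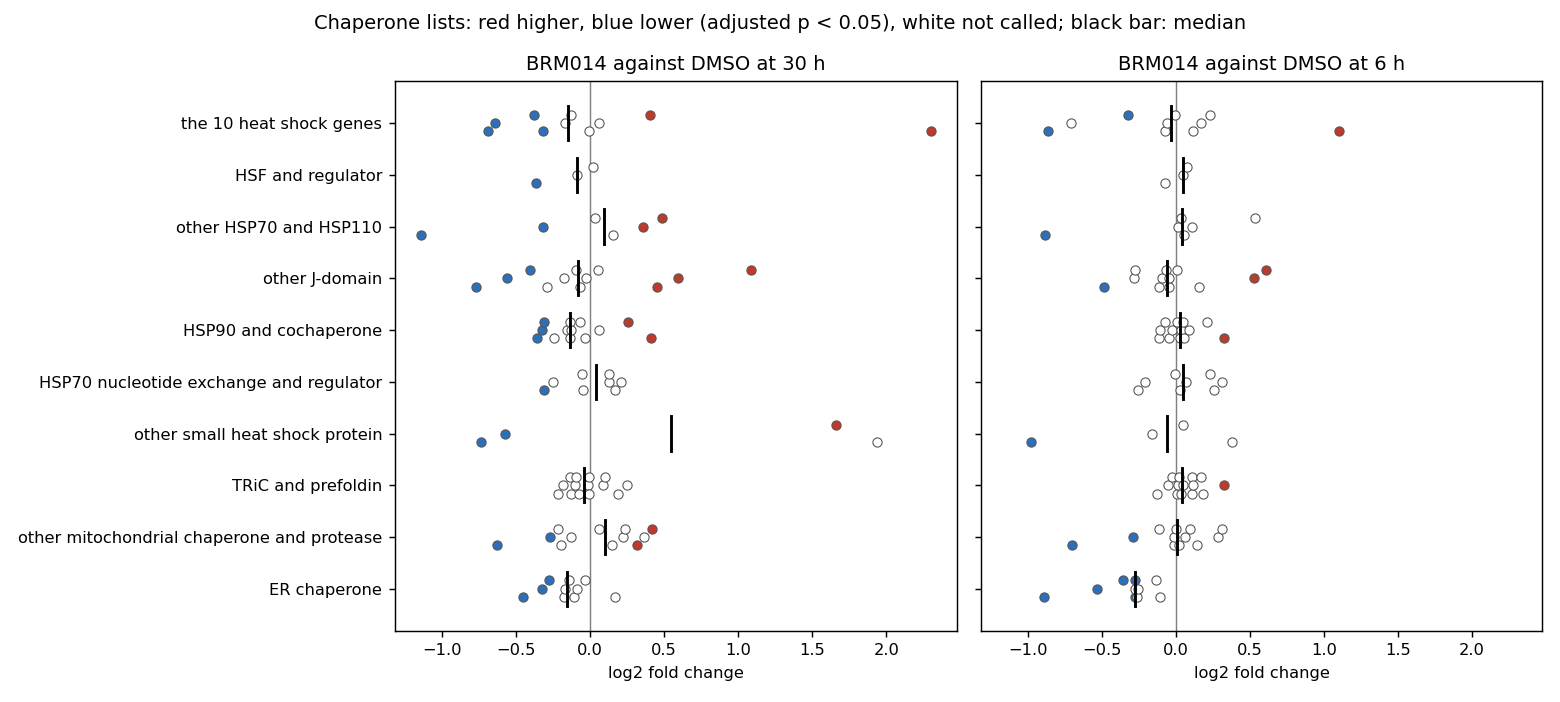
Log2 fold change (BRM014 against DMSO) of each tested gene of the 10 heat shock genes and of 9 other chaperone lists, at 30 h (left panel) and 6 h (right panel). Red points are higher and blue points lower at an adjusted p below 0.05, white points did not pass, and black bars are list medians; the 14 TRiC and prefoldin genes lie between -0.22 and 0.25 at 30 h.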

How the data were processed

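The deposited table holds raw gene counts of 8 libraries, listed by symbol and Entrez ID. Per the labels' protocols, total RNA was made into stranded libraries and read as single reads of 50 bases. The submitters' processing notes name mm9, Subread, SAMtools 0.1.19 and featureCounts, without roles; annotation and strand setting were not given in the sources used here. The test was that of edgeR 4.0.16 (R 4.3.3): filterByExpr (11835 of 21240 genes), TMM factors (0.935 to 1.05) and 1 quasi-likelihood fit of 4 group means. Tests were 2-sided, with p-values adjusted by Benjamini-Hochberg over all tested genes and 0.05 as the threshold. The SE is the log2 fold change divided by the root of the F value. The fit was also run on simulated counts with the same relative spread for all genes. That setting is simpler than these data and says nothing about the calls made here.

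Alternatives were RLE factors, library totals, no filter, a stricter filter (1 CPM in 4 libraries), DESeq2 1.42.0, limma-voom (limma 3.58.1), the comparison's own libraries, a replicate block, Hspa1a and Hspa1b summed, and leaving out each library; the last leaves 1 group with a lone library, assumed to vary like the others. The members and lists were chosen with earlier results of these data known. Genes named were the 10, the heat shock factor list, each list's called gene of smallest p in each direction at each time, each member's most alike gene (log2 CPM, prior count 2), Smarca4 and Smarca2. Promoters are from RefSeq (GRCm38.p6), transcripts from GENCODE M21; no coordinate was converted from mm9.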

Additional observations from a re-analysis of the deposited data

Results flagged for a closer look

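The effect of BRM014 differed between 30 h and 6 h in edgeR's test of that difference for 2 of the 10 heat shock genes and for 3 other named chaperone genes. Of all tested genes 6.47% passed this test, and of the 82 other chaperone genes 4 did (4.88%). The 3 others had been named for the smallest p of their list at 30 h or 6 h. The 30 h minus 6 h differences in log2 fold change were -0.58 ± 0.15 for Hsph1 (adjusted p = 0.0360) and -0.55 ± 0.14 for Dnajb1 (adjusted p = 0.0329). They were 1.28 ± 0.25 for Cryab (adjusted p = 0.00772), 0.93 ± 0.20 for Dnajb4 (adjusted p = 0.0124) and 0.77 ± 0.21 for Dnajb9 (adjusted p = 0.0442). Each of these 5 calls ended with at least 1 library left out. The Hsph1 and Dnajb1 calls each ended when any 1 of 6 libraries was left out (adjusted p = 0.0793 to 0.176 for Hsph1 and 0.0573 to 0.132 for Dnajb1). Leaving out libraries for the other 3 genes was a check chosen after seeing the data. The Cryab call ended without DMSO 6 h replicate 1 (1.11 with adjusted p = 0.0555). The Dnajb4 call ended without DMSO 6 h replicate 1 (0.79 with adjusted p = 0.0816) and without BRM014 6 h replicate 2 (0.83 with adjusted p = 0.0787). The Dnajb9 call ended whichever of the 8 libraries was left out (0.71 to 0.85 with adjusted p = 0.0589 to 0.163), and also with library totals (0.73 with adjusted p = 0.0690).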

How the results depend on the processing

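The members' counts of calls moved by under 1.5 times with RLE factors, library totals, no filter, a stricter filter, DESeq2, limma-voom, only the comparison's libraries and summed Hspa1 genes. Leaving out 1 library gave 3 to 6 calls for BRM014 against DMSO at 30 h, 1 to 3 at 6 h, 0 to 2 for the difference, 4 to 8 over time in BRM014 and 3 to 5 over time in DMSO. Over all genes the same ranges were 3068 to 4192, 1415 to 3144, 351 to 921, 2227 to 4683 and 2331 to 4223, and the difference (766 genes) gave 1309 calls with no filter. Library totals turned the all-gene split at 6 h to 1691 higher and 1391 lower (1106 and 1709 with TMM), over time in DMSO to 2754 and 1424 (2133 and 2034 with TMM). They moved the median of all genes to at most 0.0963.

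With replicate number as a block, 6 members were called at 30 h, 3 at 6 h, 2 for the difference, 9 over time in BRM014 and 5 over time in DMSO. Over all genes the block gave 4873, 3354, 1237, 4894 and 4851 calls in the same order. Without the block these were 4248, 2815, 766, 4317 and 4167, so calls rose among all genes as well. The block added calls for Hspa8 over time in BRM014 (-0.34, adjusted p = 0.0405) and for Hspa1a over time in DMSO (1.25, adjusted p = 0.0188). Same-numbered libraries correlated at r = 0.0110 to 0.201 in their deviations from group means, and the labels name no shared origin, so the numbers were not taken as pairs.

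Of the alternative values for single members, 746 kept direction and side of the threshold, 44 lost a call, 13 gained one and 37 changed sign. These signs turned. At 6 h Hspe1 was 0.00731 with RLE factors, 0.0806 with library totals, 0.0177 with no filter, 0.0195 with a stricter filter, 0.0073 with DESeq2 and 0.0160 with only the 6 h libraries. Library totals gave 0.0127 for Hspa8, 0.0253 for Hsph1, 0.00898 for Hsf2 and 0.0488 for Smarca4 at 6 h. At 30 h Hspa1a was 0.00080 with RLE factors, 0.0250 with library totals and 0.0039 with a stricter filter. Leaving out 1 library at 30 h gave -0.74 to 0.40 for Hspa1a, -0.42 to 0.14 for Hspa8, -0.26 to 0.0142 for Hspe1 and -0.10 to 0.15 for Hsf1. At 6 h it gave -1.47 to 0.10 for Hspa1a, -0.34 to 0.28 for Hspa8, -0.12 to 0.0122 for Hsph1, -0.0460 to 0.0470 for Hspe1, -0.18 to 0.0715 for Hsf2, -0.0282 to 0.15 for Hsbp1, -0.12 to 0.0806 for Smarca4 and -0.10 to 0.25 for Smarca2. For the difference it gave -0.10 to 1.46 for Hspa1a, -0.15 to 0.53 for Hspa1b, -0.45 to 0.21 for Hspa8, -0.10 to 0.0848 for Hspd1 and -0.29 to 0.0170 for Hspe1, and over time in DMSO -0.54 to 0.11 for Hspa8 and -0.0417 to 0.16 for Bag3. The cause was not tested. Hspa1a had at most 69 counts in a library, which limits the precision of its values.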
